A study of Arabidopsis thaliana with 12 samples.

Results

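The transcripts of 4 Arabidopsis thaliana genes that encode parts of the photosynthetic light reactions were compared between wild type (WT) and the ppi1 mutant. They are LHB1B2 (AT2G34420, also LHCB1.5), PSAN (AT5G64040), PSBY (AT1G67740) and PSBW (AT2G30570). Each was taken from the 1 array feature annotated to that gene alone, so the members are 4 of 3439 features and 4 of the 692 features with exactly 1 gene. The members were chosen by name and annotation, with earlier results of these data known.

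Total RNA was hybridised to 12 arrays, 6 of WT and 6 of ppi1, both of ecotype Columbia 0 and both numbered 1 to 6. The ppi1 mutant is known to lack functional TOC33, a receptor that recognises precursor proteins at the surface of the chloroplast. The labels give no plant age, tissue or growth condition, no treatment, and no statement on separate plants or pooling, so p-values measure the spread between these arrays, which may be technical. The comparison asks how nuclear transcripts differ when import into chloroplasts is impaired.

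All 4 genes lie in the nucleus, and their proteins are made in the cytosol and imported into the chloroplast before they join a thylakoid complex. Photosystem II, which oxidises water, receives light energy from a surrounding antenna of chlorophyll a/b-binding proteins. Photosystem I takes electrons from plastocyanin and passes them on to ferredoxin. LHB1B2 is one of the LHCB1 proteins of the main photosystem II antenna, PSBY and PSBW are small membrane subunits of photosystem II, and PSAN is a subunit of photosystem I on the lumenal side of the thylakoid.

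The deposited values are linear intensities, 1 for each feature on each array. The array medians ranged from 0.475 to 0.645, and every ppi1 array had a higher median than every WT array. The intensities were quantile-normalised between arrays, and levels are given below as relative intensity. Array scale and genotype therefore cannot be told apart, and the normalisation removes a shift shared by most features. Quantile normalisation gives every array the same set of values, so a feature that holds the same rank on several arrays has the same relative intensity on each. A feature was called at an adjusted p under 0.05, from limma's test over all 3365 features that were above 0 on at least 1 array, with Benjamini-Hochberg adjustment. In bulk RNA, fewer cells of a type and less RNA per cell cannot be told apart. Levels of different features are not amounts of transcript and were not set against each other.

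Arrays with adjacent numbers, 1 and 2, 3 and 4, 5 and 6, lay close together within each group. Their median absolute log2 difference over all features was 0.0861 to 0.122, against 0.158 to 0.314 for the other pairs of arrays of a group. The 6 arrays of a group may therefore hold fewer than 6 independent samples, and changes of the members and of their pairs are also given by these sets. None of 11 listed loci of the import machinery, TOC33 among them, had a feature of its own, so the mutation could not be checked in the data. Neither did any of 6 listed markers of senescence and seed storage, so these could not be checked either. The only listed markers of green tissue were the photosystem and antenna loci, which include the members.

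The antenna gene LHB1B2 fell to less than 1/2 of its WT signal in ppi1. PSBY fell by a smaller amount, PSAN did not pass the test, and PSBW did not pass either, with a change that was positive or negative depending on the scaling. Of the 4 members, 2 were called lower and 0 higher, against 5.29% of all tested features called lower and 3.15% called higher (8.44% in either direction). With adjacent replicates as a random block PSBY was no longer called (limma adjusted p = 0.0693), which left 1 of the 4. In that fit 2.11% of all tested features were called lower and 0.832% higher. The balance of calls over all features depended on the scaling, with 3.09% lower and 23.9% higher on the deposited scale. The 4 log2 changes spanned -1.05 to 0.27, while the median over all tested features was 0.0050.

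**Figure D1:**
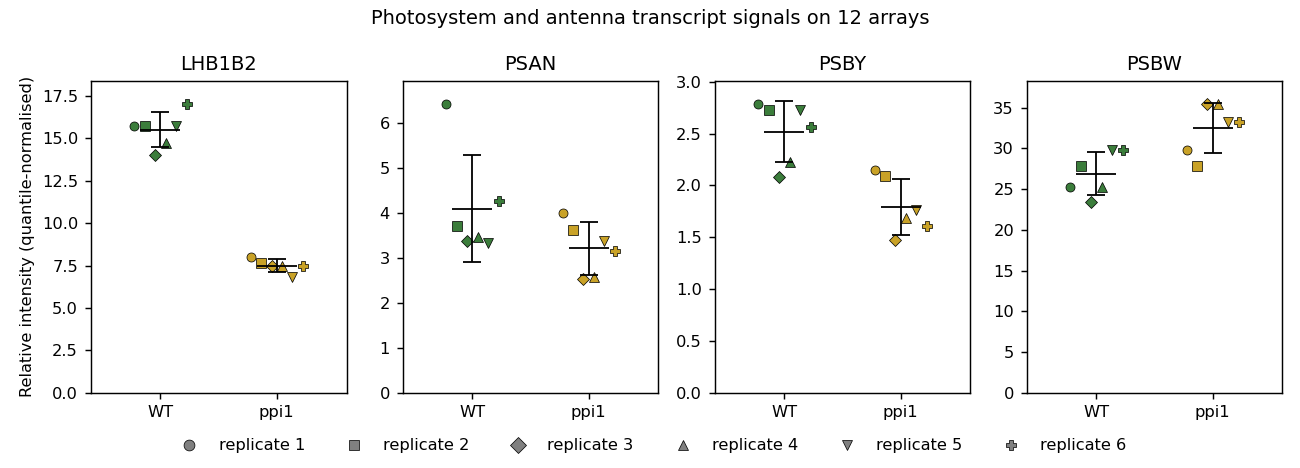
Relative intensity (quantile-normalised, linear axis from 0) of LHB1B2, PSAN, PSBY and PSBW on 6 WT arrays and 6 ppi1 arrays. Symbols mark the replicate number, and bars show mean ± SD; the groups are apart for LHB1B2 and overlap for the other 3 genes, with WT replicate 1 of PSAN at 6.42.

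LHB1B2 ranged in WT from 14.03 to 17.0 around a median of 15.8. In ppi1 it ranged from 6.83 to 8.02 around a median of 7.50. The lowest WT array was above the highest ppi1 array, a separation in this direction shared by 3.95% of all tested features. The means were 15.5 ± 1.03 in WT and 7.50 ± 0.385 (SD, n = 6) in ppi1, a log2 change of -1.05 (SE 0.0505, limma adjusted p = 4.32e-07). Its 95% interval ran from -1.16 to -0.94, and the feature ranked 17 of 3365 by the size of its change.

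The rank of LHB1B2 among the 3439 features of each array does not depend on the scaling of that array. Counted from the brightest, it was 20 to 24 on the WT arrays and 43 to 51 on the ppi1 arrays. On the deposited scale LHB1B2 was 16.5 ± 0.464 in WT and 6.91 ± 0.534 (SD, n = 6) in ppi1. By adjacent sets, the log2 difference between ppi1 and WT was -1.01 for replicates 1 and 2, -0.94 for replicates 3 and 4 and -1.19 for replicates 5 and 6.

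With adjacent replicates averaged, which leaves 3 values per group, LHB1B2 still passed in limma (adjusted p = 0.0210), where 4 of 3365 features (0.119%) did. With the sets as a random block, where 2.11% of all tested features were called lower, the limma adjusted p of LHB1B2 was 2.47e-05. AT2G34420 is neighboured in the gene table by LHB1B1 (AT2G34430), another LHCB1 gene, and the LHCB1 genes are near-identical copies. The feature may therefore pick up transcripts of several of them, and which of them contributed was not tested.

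The photosystem II subunits PSBY and PSBW differed from each other in their response. PSBY ranged in WT from 2.08 to 2.78 around a median of 2.65, and in ppi1 from 1.47 to 2.15 around a median of 1.72. The groups overlapped, because WT replicate 3 was at 2.08 while ppi1 replicates 1 and 2 were at 2.15 and 2.09. Within each replicate number, however, ppi1 was the lower array in 6 of 6, as it was for 11.3% of all tested features.

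The mean of PSBY was 2.52 ± 0.297 in WT and 1.80 ± 0.271 (SD, n = 6) in ppi1, a log2 change of -0.49 (SE 0.110, limma adjusted p = 0.0181). Differences within replicate numbers ran from -0.67 to -0.37. By adjacent sets they were -0.38 for replicates 1 and 2, -0.45 for replicates 3 and 4 and -0.65 for replicates 5 and 6. In both groups replicates 3 and 4 were below replicates 1 and 2, while replicates 5 and 6 were near replicates 1 and 2 in WT and near replicates 3 and 4 in ppi1.

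The replicate number as a block removes shifts shared by same-numbered arrays. It lowered the SE of PSBY to 0.0516 (limma adjusted p = 0.0044) and called 7.93% of all tested features lower. Besides the random block, the call for PSBY was lost with adjacent replicates averaged (limma adjusted p = 0.345). It was also lost in the exact permutation test over all splits of the 12 arrays into 6 and 6 (adjusted p = 0.0719). That test called 3.95% of all tested features lower. The features it called were the 205 whose groups did not overlap, so a feature with overlapping groups, such as PSBY, could not pass. PSBY was called with each of the 12 arrays left out in turn (limma adjusted p from 0.0130 to 0.0438).

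PSBW ranged in WT from 23.4 to 29.8 around a median of 26.5, and in ppi1 from 27.8 to 35.4 around a median of 33.3. The groups overlapped, with ppi1 replicates 1 and 2 at 29.8 and 27.8 inside the WT range and the other 4 ppi1 arrays, at 33.3 to 35.4, above it. The log2 change was 0.27 (SE 0.0801, 95% interval 0.10 to 0.45), with an adjusted p of 0.0609 in limma.

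On the deposited scale PSBW was 28.4 ± 2.84 in WT and 29.8 ± 2.19 (SD, n = 6) in ppi1, a log2 change of 0.07. With each array divided by its median, the PSBW change was -0.20 (limma adjusted p = 0.123), so its direction rested on the scaling. At this brightness quantile normalisation works from few features. The rank of PSBW was 11 to 14 in WT and 8 to 12 in ppi1, and a shift by 1 rank, from 11 to 12, lowered the relative intensity from 29.8 to 27.8.

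Within replicate numbers, PSBW was higher in ppi1 in 5 of 6 with quantile normalisation and equal in 1, higher in 4 and lower in 2 on the deposited scale, and lower in 6 of 6 with median scaling. By adjacent sets the quantile-normalised difference of PSBW was 0.12, 0.54 and 0.16, and the median-scaled one -0.04, -0.14 and -0.42. The plot of differences by replicate number shows these 3 scalings side by side. Of the other members, LHB1B2 and PSBY were lower in ppi1 in 6 of 6 under all 3 scalings. PSAN was lower in 5 of 6 with quantile normalisation and in 6 of 6 on the deposited and median scales. The share of all tested features lower in 6 of 6 was 11.3% with quantile normalisation and was not taken for the other scalings.

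**Figure D2:**
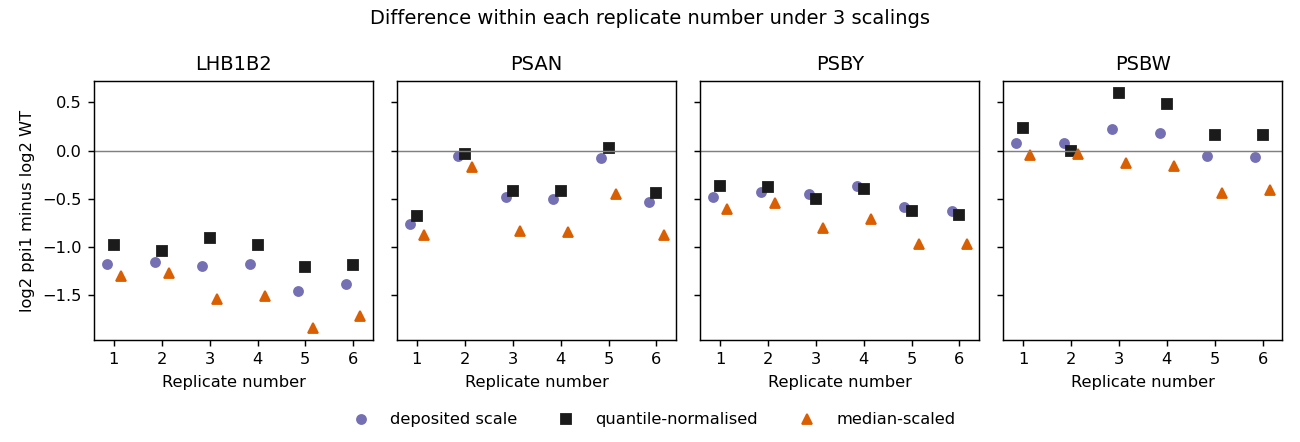
Log2 difference between the ppi1 and the WT array of the same replicate number (vertical axis) for each number from 1 to 6 (horizontal axis), under 3 scalings marked by colour and shape. LHB1B2 and PSBY lie below 0 throughout, PSAN is above 0 at 1 point (0.02), and PSBW lies at or above 0 when quantile-normalised and below 0 when median-scaled.

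The photosystem I subunit PSAN had the widest spread of the 4 on the log2 scale, with a pooled SD of 0.32 within groups against 0.09 to 0.20 for the other members. In WT it ranged from 3.33 to 6.42 around a median of 3.59, and in ppi1 from 2.52 to 4.01 around a median of 3.27. WT replicate 1 stood apart at 6.42, with the other WT arrays at 3.33 to 4.27, and the groups overlapped. The means were 4.10 ± 1.19 in WT and 3.21 ± 0.583 (SD, n = 6) in ppi1.

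The log2 change of PSAN was -0.33 (SE 0.176, limma adjusted p = 0.309), with a 95% interval from -0.72 to 0.06. That interval includes -0.49, the change of PSBY. Without WT replicate 1 the PSAN change was -0.19 (limma adjusted p = 0.452). PSAN passed with median scaling (-0.68, limma adjusted p = 0.0356), where 9.99% of all tested features were called lower.

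Within replicate numbers, PSAN was lower in ppi1 in 5 of 6 with quantile normalisation, the exception being number 5 at 0.02. By adjacent sets the difference was -0.36 for replicates 1 and 2, -0.42 for replicates 3 and 4 and -0.21 for replicates 5 and 6. In WT the arrays 1 and 2, which were close over all features, differed for PSAN by 0.79 on the log2 scale. In ppi1 the largest such difference between adjacent arrays was 0.15.

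To compare the subunits with each other, the log2 difference between 2 members was taken within each array, and its mean was compared between the groups for the 6 pairs. Dividing an array by a constant does not move such a difference. Two-sided exact permutation tests over all splits of the arrays into 6 and 6 were used, with Benjamini-Hochberg adjustment over the 6 pairs. The smallest p that these splits allow is 0.0022. Quantile-normalised, the difference did not overlap between ppi1 and WT for 3 of the 6 pairs, against 5.76% of all 5659930 pairs of tested features. The 6 pairs share their 4 members, and LHB1B2 by itself separated the groups. On the deposited scale PSBY minus PSBW overlapped, and only LHB1B2 minus PSBW and LHB1B2 minus PSBY did not.

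LHB1B2 and PSBW moved apart the most. LHB1B2 minus PSBW lay between -0.92 and -0.68 in WT and between -2.28 and -1.86 in ppi1, with a gap of 0.94 between the groups. The shift was -1.32 (SE 0.0829, exact permutation p = 0.0022, adjusted p = 0.0043), a 2.50-fold change in the ratio of the 2 signals. It was -1.13 in replicates 1 and 2, -1.48 in replicates 3 and 4 and -1.36 in replicates 5 and 6. On the deposited scale the shift was -1.33 and with cyclic loess -1.32.

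PSBY, which fell, also moved apart from PSBW. PSBY minus PSBW shifted by -0.77 (SE 0.152, exact permutation p = 0.0022, adjusted p = 0.0043), and the groups were 0.19 apart after quantile normalisation. On the deposited scale the shift was -0.56 (exact permutation p = 0.0043, adjusted p = 0.0087), and the groups overlapped. With quantile normalisation the shift was -0.49 in replicates 1 and 2, -0.99 in replicates 3 and 4 and -0.81 in replicates 5 and 6. This difference between sets was not tested and rested on the scaling. On the deposited scale PSBY changed by -0.46, -0.41 and -0.61 in these sets and PSBW by 0.08, 0.20 and -0.06. The shift between them was there nearly the same in each set. Both genes encode subunits of the same complex, photosystem II.

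LHB1B2 fell further than PSBY. LHB1B2 minus PSBY shifted by -0.56 (SE 0.0936, exact permutation p = 0.0022, adjusted p = 0.0043), or by -0.77 on the deposited scale, with no overlap between the groups. By sets the shift was -0.63, -0.49 and -0.55. With LHB1B2 minus PSAN, the shift was -0.72 (SE 0.173, exact permutation p = 0.0065, adjusted p = 0.0097), and the groups overlapped through WT replicate 1. By sets it was -0.65, -0.52 and -0.99.

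PSAN minus PSBW shifted by -0.60 (SE 0.230, exact permutation p = 0.0173, adjusted p = 0.0208), with overlapping groups, and this call was lost with cyclic loess (adjusted p = 0.109) and without ppi1 replicate 3 (0.0571) or 4 (0.0519) in exact tests. By sets it was -0.47, -0.96 and -0.37. PSAN minus PSBY shifted by 0.16 (SE 0.138, exact permutation p = 0.273, adjusted p = 0.273). By sets it was 0.02 for replicates 1 and 2, 0.03 for replicates 3 and 4 and 0.44 for replicates 5 and 6. Without WT replicate 1 the shift between PSAN and PSBY was 0.26, and it passed (exact permutation test, adjusted p = 0.0312).

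With adjacent replicates averaged, 3 values against 3 allow no exact p under 0.1, so the exact test could not call any pair there, and no other test of the averaged pairs was run. In exact tests over sign flips of the differences within replicate numbers, the 5 called pairs were all at 0.0312, the smallest p that 6 numbers allow (adjusted p = 0.0375). That test does not tell these pairs apart, and it treats the 6 numbers as independent, although adjacent numbers lay close together.

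**Figure D3:**
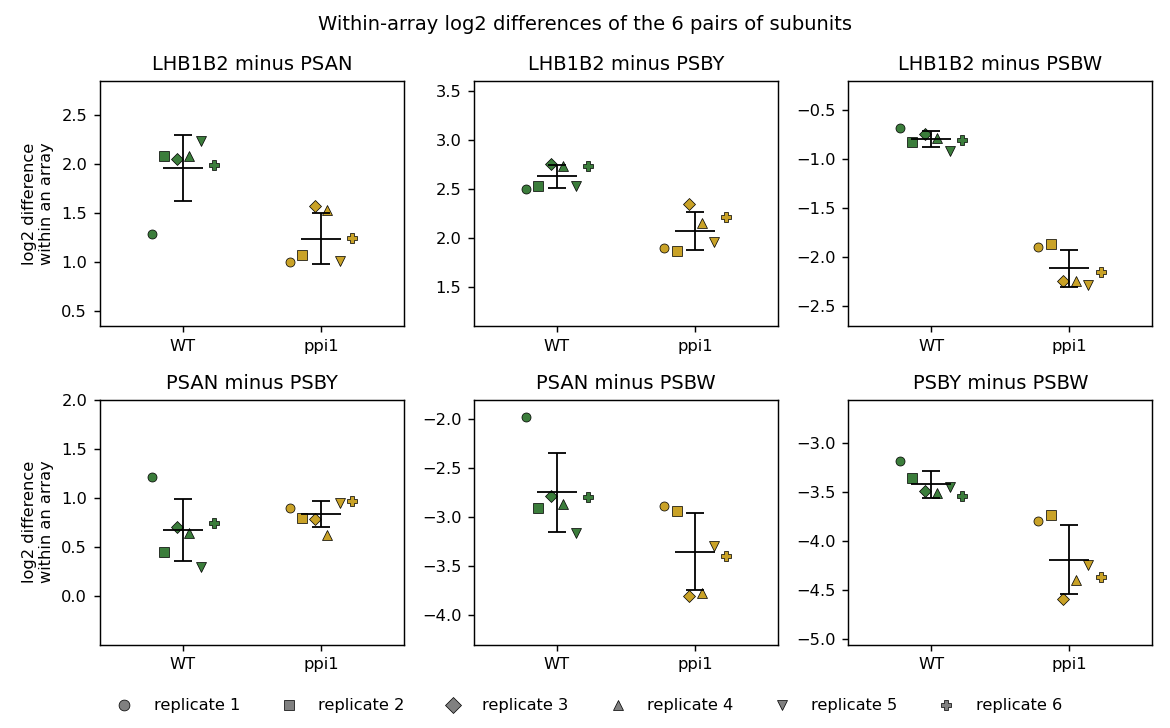
Log2 difference between 2 members within an array (vertical axis, each panel spanning the same number of log2 units) on 6 WT and 6 ppi1 arrays for the 6 pairs. Symbols mark the replicate number and bars show mean ± SD. With quantile normalisation, as drawn, LHB1B2 minus PSBW, LHB1B2 minus PSBY and PSBY minus PSBW do not overlap between the groups.

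The plot of settings compares the change of each member under the alternatives to quantile normalisation. LHB1B2 changed by -1.53 to -1.02 and was called in each alternative run. PSBY changed by -0.77 to -0.44. PSBW was called in 2 alternatives, with array weights (0.31, limma adjusted p = 0.0331, with 4.40% of all tested features called higher) and without ppi1 replicate 2 (0.29, limma adjusted p = 0.0393, with 3.03% called higher), and had a negative change with median scaling. On the deposited scale the median over all features was itself 0.21 higher in ppi1, so changes on that scale are to be read against this shift.

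**Figure D4:**
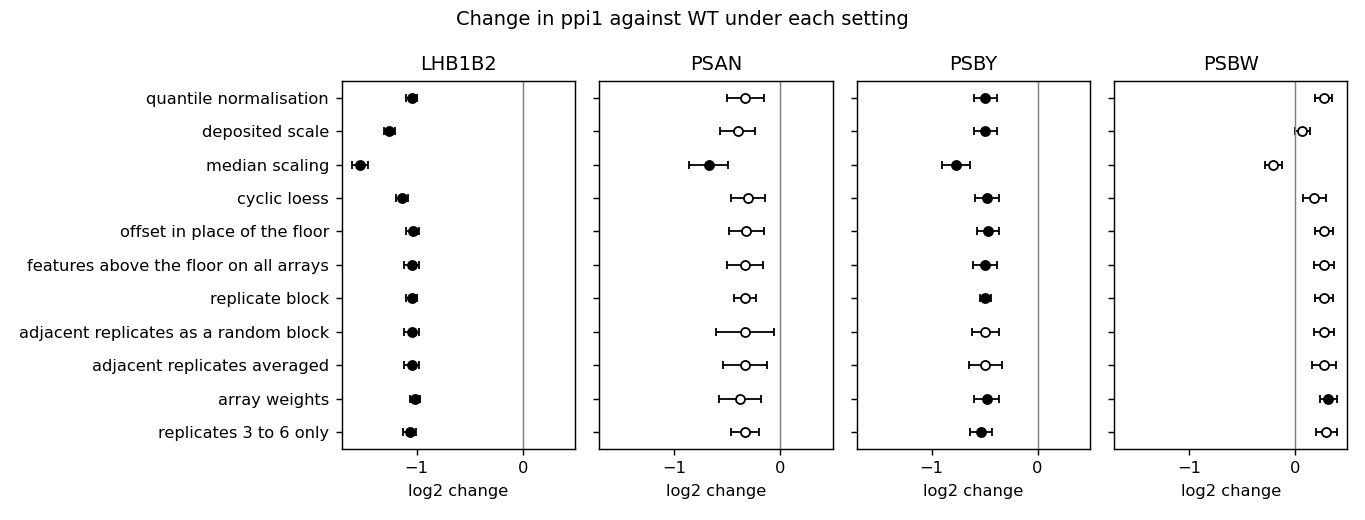
Log2 change in ppi1 against WT (horizontal axis) with its SE for LHB1B2, PSAN, PSBY and PSBW under quantile normalisation and the alternatives named on the vertical axis. Filled points passed at an adjusted p under 0.05 in limma; LHB1B2 is filled throughout, and PSBW is at -0.20 with median scaling and above 0 in the other settings drawn.

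Among 49 listed loci of photosystem and antenna proteins, and any other feature named for them by symbol, 6 features with 1 gene were found. Of these, 2 were called lower and 0 higher, against 5.29% and 3.15% of all tested features, and the 2 are the members LHB1B2 and PSBY, of which PSBY lost its call with the random block (limma adjusted p = 0.0693). The median log2 change of the 6 was -0.22, against 0.0050 over all tested features. The members make up 4 of the 6, so this median is not separate evidence, and the other 2 features were at -0.12 and -0.03. The 2 that are not members of the set, named here after their values were seen, are PSB27 (AT1G03600) and LPA19 (AT1G05385). Both encode Psb27-type proteins that act in the assembly of photosystem II, rather than structural subunits of the finished complex.

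PSB27 ranged from 1.95 to 5.07 in WT and from 1.50 to 5.03 in ppi1. Its spread followed the replicate numbers and not the genotype, with replicates 5 and 6 at 1.95 and 2.29 in WT and at 1.50 and 1.53 in ppi1, and all other arrays at 4.10 or above. The log2 change was -0.12 (SE 0.411, limma adjusted p = 0.937), and ppi1 was the lower array in 3 of 6 numbers. The members did not show this pattern in size, since their set means within a group spanned at most 0.58 on the log2 scale, for PSAN in ppi1.

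LPA19 was a dim feature, at 0.302 ± 0.0272 in WT and 0.296 ± 0.0381 (SD, n = 6) in ppi1. Its log2 change was -0.03 (SE 0.0912, limma adjusted p = 0.923), with ppi1 higher in 3 of 6 replicate numbers and lower in 3. On the deposited scale it was 0.28. No member's locus was found in a feature with several genes, and 1 such feature held another listed photosystem locus and is not named.

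**Figure D5:**
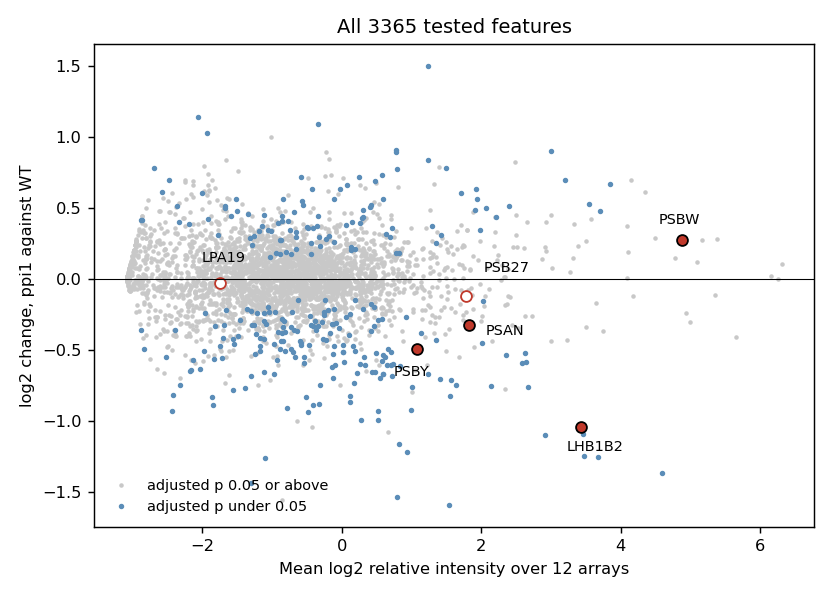
Log2 change in ppi1 against WT (vertical axis) against mean log2 relative intensity over 12 arrays (horizontal axis) for 3365 features, with features at an adjusted p under 0.05 in blue. Filled red points are the 4 members and open red points are PSB27 and LPA19; LHB1B2 and PSBY lie below 0 among the called features, and PSBW, whose direction depends on the scaling, lies above 0 here.

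In other steps of photosynthesis, 2 of 17 listed Calvin cycle loci and 2 of 14 listed loci of chlorophyll synthesis had a feature of their own. PRK, the phosphoribulokinase of the Calvin cycle, fell with a log2 change of -0.82 (SE 0.200, limma adjusted p = 0.0271), a call lost with adjacent replicates as a random block (0.209). With single arrays left out in turn, PRK passed in 4 fits and not in 8 (limma adjusted p up to 0.0579). SBPASE, the sedoheptulose bisphosphatase, was at -0.13 (limma adjusted p = 0.747) and at 0.06 on the deposited scale. The chlorophyll synthesis genes CHLM (0.18, limma adjusted p = 0.568) and AT1G74470 (-0.23, limma adjusted p = 0.400) did not pass, although CHLM did with the replicate block (0.0252).

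The features most like each member over the 12 arrays were sought among the other 675 tested features with 1 gene. Likeness was the root mean square difference between log2 patterns, each centred on its own mean. For LHB1B2 the closest were AT4G08940 (0.233), AT1G68660 (0.245) and AT3G47980 (0.251), against a median of 0.580 over all candidates. For PSBY they were LpxA (AT4G29540, 0.126), AT3G57630 (0.147) and AT1G21660 (0.180), against a median of 0.387.

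The feature closest to PSAN was PSBY (0.234), followed by AT4G31470 (0.252) and LpxA (0.255), against a median of 0.407. For PSBW the closest were AT4G24910 (0.109), AT3G23940 (0.111) and AT4G17650 (0.111), against a median of 0.287. No member was among the 3 closest to LHB1B2, PSBY or PSBW. LHB1B2 and PSBW were 0.674 apart by this measure, the widest distance among the 6 pairs of members, and PSAN and PSBY, at 0.234, were the closest pair.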

How the data were processed

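The deposited table holds 1 hybridisation intensity per feature and array, as the authors made it. How the authors corrected and scaled it, and the array type, are not stated in the labels or the table. Features at 0 on every array (74 of 3439) were left out. The rest were quantile-normalised, set to a floor of 0.118 (the 5th percentile of positive values) where lower, and log2-transformed. WT and ppi1 were compared with limma 3.58.1 (R 4.3.3) over 12 arrays with no covariate. The fit was tested on simulated data with independent noise on each array, which leaves out the closeness of adjacent arrays. Features were named through the 2016 platform annotation, updated by gene identifier against assembly TAIR10.1 (2 of 692 identifiers not matched). No coordinates or sequences are given, and promoter windows were not analysed here. Named genes were the members, all measured genes of the Calvin cycle and chlorophyll lists, and the 3 features nearest each member; PSB27 and LPA19, from the photosystem list, were added after their values were seen. The members, lists and tests were chosen with earlier results of these data known.

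Deviations of same-numbered WT and ppi1 arrays from their group means correlated at 0.379 to 0.590, each array best with its own number. Numbers were therefore taken as pairs, from the data alone, in the differences within replicate numbers, the sign flips and the replicate block. The fit without a covariate and the exact tests over all splits did not use these pairs. Alternatives were other scalings, an offset, a filter, blocks, averaging, array weights, an exact test and leaving out arrays. The number of arrays limits the precision.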

Additional observations from a re-analysis of the deposited data

Results flagged for a closer look

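Dixon's test was applied to 32 groups of 6 values and set 1 array apart in 4 of them, where chance sets about 1 group in 20 apart. PSAN in WT was at 6.42 in replicate 1, against 3.33 to 4.27 on the other WT arrays. The same array set 2 within-array differences apart, which are not separate evidence: LHB1B2 minus PSAN was 1.295 there, against 1.99 to 2.24 on the other WT arrays, and PSAN minus PSBW was -1.98, against -3.16 to -2.79. PRK in ppi1 was at 1.35 in replicate 1, against 0.653 to 0.823 on the other ppi1 arrays. The cause of these values was not tested.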

How the results depend on the processing

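Against 284 features called, the deposited scale gave 909 (805 higher, 104 lower against 106 and 178), the replicate block 517, adjacent replicates as a random block 99 and averaged 4 (398 at an unadjusted p under 0.05); leaving out each array gave 223 to 276. LHB1B2 kept its direction and call throughout (-1.09 to -1.02 with each array left out). PSBY kept its direction (-0.55 to -0.44 with each array left out, -0.77 with median scaling). At its value of -0.49 it lost its call with the random block, with averaging and in the exact permutation test, which no feature with overlapping groups passed. PSAN passed with median scaling (-0.68) and ranged from -0.40 to -0.19 with each array left out. PSBW was reversed with median scaling (-0.20), passed with array weights (0.31), and ranged from 0.24 to 0.31 with each array left out. The replicate block, with the members' values as in the fit without it (LHB1B2 -1.05, PSAN -0.33, PSBY -0.49, PSBW 0.27), changed no call of a member or pair. With averaged replicates, where an exact test of 3 against 3 cannot pass, the pair shifts of -0.72 (LHB1B2 and PSAN), -0.56 (LHB1B2 and PSBY), -1.32 (LHB1B2 and PSBW), -0.60 (PSAN and PSBW) and -0.77 (PSBY and PSBW) lost their calls. PSAN and PSBW lost theirs with cyclic loess (-0.49). With each array left out, LHB1B2 and PSAN ranged from -0.85 to -0.65, LHB1B2 and PSBW from -1.36 to -1.28, LHB1B2 and PSBY from -0.60 to -0.51, PSAN and PSBW from -0.69 to -0.46, PSAN and PSBY from 0.082 to 0.263 and PSBY and PSBW from -0.84 to -0.69. With replicates 3 to 6 alone, chosen after seeing the data, no call of a member or pair changed. The called pairs were all at an exact permutation p of 0.0286 (adjusted p = 0.0343), the smallest that so few arrays allow. That test therefore does not tell these pairs apart. Where not shown by the setting itself, the cause was not tested.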
